A study of Mus musculus with 6 samples.

Results

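The genes described here are 9 regulators of lipid synthesis that act beside SREBP-1c: the ChREBP group (Mlxipl, Mlxip and Mlx), the liver X receptors (Nr1h2 and Nr1h3), the upstream stimulatory factors (Usf1 and Usf2), the small heterodimer partner SHP (Nr0b2) and the Kruppel-like factor Klf15. They were chosen by symbol among probe sets that the platform annotation pairs with exactly 1 gene, and 8 of the 9 were found, of 22180 genes tested. Nr1h2 was named by no probe set in that annotation and was not analysed here. Levels were measured in whole sciatic nerve, the large peripheral nerve of the leg, from 10-month-old mice. There were 3 arrays of Srebf-1c KO mice, labelled as lacking Srebf-1c, and 3 of their wild-type littermates. The labels give no other allele, treatment or sex and do not say how the allele was made or that every array is a separate animal. A p-value here therefore reflects the spread among these 6 samples, some of which may be technical.

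Several transcription factors share the task of turning on lipid synthesis. ChREBP, the product of Mlxipl, responds to sugar metabolites and binds DNA together with MLX, while MondoA, the product of Mlxip, uses the same partner and is best known from muscle. The liver X receptors respond to oxysterols and are known to switch on Srebf1 itself, USF1 and USF2 bind E boxes in promoters of lipogenic enzymes, SHP has no DNA-binding domain and represses other nuclear receptors, and KLF15 is known in liver and muscle for amino acid breakdown and, during fasting, for restraint of Srebf1. In peripheral nerve, lipid synthesis serves the myelin that Schwann cells make.

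DNA letters that some of these factors are known to read occur upstream of some of these genes, and those windows are shown as background to the levels that follow. RefSeq windows on GRCm38.p6 were matched by symbol for 8 of the 9 genes, with 11 windows in all, because Mlxipl, Nr1h3 and Usf1 have 2 starts each. Usf2 was not matched. The 2 Nr1h3 windows overlap, so the 11 windows are not separate units. Shares over all windows, given for comparison, were not matched for GC content. In the 250 bases before a start, the E box CACGTG, which reads the same on both strands and is known to be bound by USF and MLX dimers, was found in 4 of the 11 windows, against 6.02% of all 32851 windows of this length. These are the 4 windows, 5′ to 3′, with each CACGTG in capitals:
Klf15 (chr6:90462326-90462575, plus strand): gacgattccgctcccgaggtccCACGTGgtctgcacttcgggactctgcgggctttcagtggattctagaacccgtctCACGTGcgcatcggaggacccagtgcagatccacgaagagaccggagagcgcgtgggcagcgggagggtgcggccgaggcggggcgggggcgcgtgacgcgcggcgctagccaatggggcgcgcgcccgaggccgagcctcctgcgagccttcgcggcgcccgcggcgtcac
Mlx (chr11:101087040-101087289, plus strand): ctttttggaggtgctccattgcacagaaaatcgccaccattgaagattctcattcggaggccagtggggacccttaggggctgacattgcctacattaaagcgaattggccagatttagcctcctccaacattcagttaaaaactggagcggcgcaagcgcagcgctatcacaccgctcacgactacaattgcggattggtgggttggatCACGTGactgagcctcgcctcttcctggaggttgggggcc
Mlxipl (chr5:135089640-135089889, plus strand): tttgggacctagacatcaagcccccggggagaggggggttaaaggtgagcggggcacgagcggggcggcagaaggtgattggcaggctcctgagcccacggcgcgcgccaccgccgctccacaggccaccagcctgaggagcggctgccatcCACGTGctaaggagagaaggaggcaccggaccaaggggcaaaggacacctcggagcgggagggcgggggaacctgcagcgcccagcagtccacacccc
Nr0b2 (chr4:133553126-133553375, plus strand): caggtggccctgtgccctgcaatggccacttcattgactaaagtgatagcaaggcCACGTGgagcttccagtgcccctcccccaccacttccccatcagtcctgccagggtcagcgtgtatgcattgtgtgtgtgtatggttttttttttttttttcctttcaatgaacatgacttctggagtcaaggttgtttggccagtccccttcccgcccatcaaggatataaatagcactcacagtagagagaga

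The Klf15 window held the letters from 228 and from 172 bases before the start, while the windows of Mlx, Mlxipl and Nr0b2 held them once, from 40, 98 and 195 bases. For Mlxipl it was the window of the upstream start. A pair of CACGTG with 5 bases of any kind between them, the strict form of a carbohydrate response element, and the liver X receptor repeat, AGGTCA followed by AGGTCA after 4 bases of any kind, were in none of the 11 windows when both strands were searched, and they were in 0% and 0.0152% of all windows. The CACCC box CCACCC was in 1 of the 11 windows, against 28.1% of all windows, and the GC box GGGCGG in 6, against 32.7%. A match describes letters in these windows and does not show binding, and a window without a match says nothing about the factor.

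The targeted gene was checked first. Srebf1 had an intensity of 275.95, 267.43 and 262.45 on the KO arrays, against 737.02, 749.95 and 834.02 on the wild-type arrays. On the log2 scale Srebf1 fell by 1.52 with an SE of 0.11 (limma adjusted p = 0.0497), as the 1 gene of 22180 past an adjusted p of 0.05 (0.00451%). The position of its probes against the deletion is unknown, so the value checks the labels and not the size of the loss. Median intensity over all probe sets ran from 118.87 to 122.57 on the KO arrays and from 115.5 to 117.99 on the wild-type arrays. Schwann cell markers, with 13 measured of 16, were bright (median at the 96.9th percentile of mean intensity). They summed to 45915.8 to 51118.6 in KO and 42706.1 to 53770.7 in wild type. By the same median the skeletal muscle and fibroblast lists were brighter (99.1st and 97.4th percentiles), so this brightness does not single out nerve. Markers of adjoining tissue differed widely between arrays in both groups: 16 measured adipocyte genes of 18 summed to 22491.8 to 58353.3 in KO and 25270.7 to 61836.8 in wild type, with KO replicate 2 and wild-type replicate 3 highest, and 20 of 20 skeletal muscle genes to 81307.8 to 138450.7 in KO and 55373.8 to 147610.0 in wild type, with wild-type replicate 2 lowest. Endothelial markers summed to 7903.2 to 12288.6 in KO and 9620.6 to 13302.9 in wild type. At an unadjusted p under 0.05 there were 0 of 12 genes, against 5.83% of all genes. The mean was lower in KO for 11 of 12, against 56.9% of all genes, with a median log2 fold change of -0.19. Single arrays moved that median both ways. Without KO replicate 3 it was -0.004 with 7 of 12 lower, and without wild-type replicate 3 it was -0.09 with 7 of 12 lower. Without KO replicate 2 or without wild-type replicate 1 it was -0.34 with 12 of 12 lower. The part of vessels in the levels below was not tested. The fibroblast list also holds Slc2a1, Cldn1 and Itgb4, which are not specific to fibroblasts. For 7 of its 12 genes the mean was lower in KO, a share near the 56.9% of all genes. In such whole tissue, fewer cells of a type and less RNA per cell cannot be told apart.

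None of the 8 measured regulators changed in the KO nerve by the test. At an adjusted p of 0.05 and at an unadjusted p under 0.05, limma called 0 of the 8, against 0.00451% and 5.83% of all genes. With the study's criterion, an unadjusted p under 0.05 and at least a 1.5-fold change, it also called 0 of the 8, against 1.19% of all genes (142 higher and 123 lower in KO, or 188 and 101 with the arrays brought to 1 median). The unmoderated test that the design text names called 1 of the 8 at an unadjusted p under 0.05, which was Usf1. The mean was lower in KO for 6 of the 8 (5 of 8 with the arrays at 1 median, where Mlxip changed side), against 56.9% of all genes. The median log2 fold change of the 8 was -0.13 and that of all genes was -0.03. Single arrays moved both: without wild-type replicate 1 the mean was lower for 4 of 8 with a median of -0.03, the same as all genes to 2 decimals, without wild-type replicate 2 for 7 of 8 with a median of -0.16, and the median was -0.08 without KO replicate 2, KO replicate 3 or wild-type replicate 3. The groups did not overlap for 2 of the 8, Klf15 and Usf1, against 12.3% of all genes.

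How firmly a change can be bounded differed between these genes. The 95% interval of the KO over wild-type ratio held 1 for all 8, and for 5 of them (Mlxip, Nr1h3, Usf1, Usf2 and Nr0b2) it lay inside 1.5-fold in both directions. For Mlxipl, Mlx and Klf15 it reached past 1.5-fold on one side. These intervals come from limma and are not adjusted for the number of genes.

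**Figure D1:**
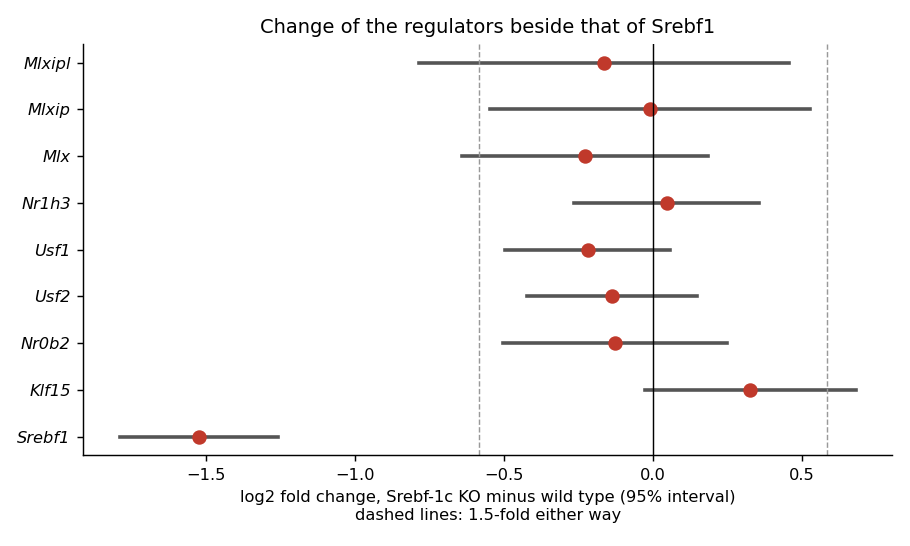
Log2 fold change of each regulator and of Srebf1, Srebf-1c KO minus wild type, on the x axis (points) with its 95% limma interval (bars), 3 arrays per group; dashed lines mark 1.5-fold either way. The 8 regulators lie between -0.23 and 0.33 with intervals that cross 0, and Srebf1 lies apart at -1.52.

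In the ChREBP group the arrays of each genotype were spread widely. Mlxipl (probe set 17443185, chromosome 5) had an intensity of 668.94, 535.32 and 503.1 on the KO arrays, against 887.39, 432.57 and 661.24 on the wild-type arrays. All 3 KO values lay inside the wild-type range. The log2 fold change was -0.16 ± 0.26 (SE, n = 3 each, limma adjusted p = 0.956), and the ratio was 0.892 with a 95% interval of 0.580 to 1.37. The pooled SD within groups was 0.399 on the log2 scale, higher than in 88.4% of genes. The direction rested on wild-type replicate 1: without it the log2 fold change was 0.079, and without wild-type replicate 2 it was -0.44.

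Mlxip (probe set 17442284, chromosome 5), the MondoA gene, had an intensity of 1700.28, 1416.67 and 1155.55 in KO, against 1903.37, 1144.07 and 1301.05 in wild type. Again the KO values lay inside the wild-type range. The log2 fold change was -0.01 ± 0.23 (SE, adjusted p = 0.998), with a 95% interval of the ratio from 0.685 to 1.44, and its sign turned with the arrays at 1 median (0.02). Mlxipl and Mlxip were both highest on wild-type replicate 1, next on KO replicate 1 and lowest on wild-type replicate 2. The skeletal muscle score, which averages the log2 deviations of the 20 muscle genes from their 6-array means, had the same arrays at its ends: it was 0.577, -0.393 and 0.173 in KO and 0.756, -0.935 and -0.178 in wild type. With this score as a covariate the log2 fold change was -0.29 ± 0.15 (SE, adjusted p = 0.742) for Mlxipl and -0.10 ± 0.17 for Mlxip. Beyond these fits the part of muscle in the spread was not tested.

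Mlx (probe set 17256537, chromosome 11), the shared partner, had an intensity of 392.03, 450.18 and 335.13 in KO, against 425.98, 400.34 and 556.5 in wild type. The groups overlapped, with wild-type replicate 3 highest and KO replicate 3 lowest. The log2 fold change was -0.23 ± 0.18 (SE, adjusted p = 0.894), which is the lowest of the 8, and the 95% interval of the ratio was 0.641 to 1.14. Wild-type replicate 3 carried much of it: without that array it was -0.08, and it ranged down to -0.33 with other arrays left out.

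Other E-box factors related to MLX and MAX, with cofactors of MLX partners, were listed as 16 genes, all measured. The mean was lower in KO for 11, against 56.9% of all genes, and higher for 5, with a median log2 fold change of -0.07, and 1 of 16 had an unadjusted p under 0.05, against 5.83% of all genes. That gene was Mxd4, a repressor that pairs with MAX, with an intensity of 983.5, 999.9 and 823.5 in KO, against 1254.2, 1360.4 and 1186.5 in wild type. Each KO array lay below every wild-type array, but the log2 fold change of -0.44 ± 0.13 (SE) did not pass adjusted over all genes (limma adjusted p = 0.850). Mxi1, another MAX partner, stood at -0.22 ± 0.14, Tfe3, a lysosome and metabolism factor, at -0.15 ± 0.12 and Myc at -0.21 ± 0.18.

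Known targets of ChREBP, several of them also targets of SREBP-1c, had a lower mean in KO for 13 of 19 measured genes of 20 listed, against 56.9% of all genes, with a median log2 fold change of -0.14 (11 of 19 lower after repeated quantile normalization). At an unadjusted p under 0.05 there were 1 higher and 2 lower, against 2.34% and 3.49% of all genes, and 0 passed adjusted over all genes. Rgs16, a regulator of G protein signalling known as a ChREBP target in liver, had 313.5, 328.9 and 237.2 in KO, against 487.8, 420.0 and 354.4 in wild type. Acly, which makes cytosolic acetyl-CoA, had 979.5, 1143.0 and 922.9 in KO, against 1157.5, 1407.1 and 2329.7 in wild type. In both genes every KO array was below every wild-type array, narrowly so for Acly, with log2 fold changes of -0.52 ± 0.18 and -0.63 ± 0.26 (SE). Fgf21, a hormone gene that ChREBP induces in liver, lay the other way, with 87.0, 58.7 and 93.0 in KO, against 52.16, 50.04 and 52.4 in wild type (0.60 ± 0.19). On all 6 arrays its intensity was dim, below the median over all probe sets. Thrsp, a lipogenic cofactor gene abundant in fat, had 93.2, 266.2 and 104.5 in KO, against 205.9, 254.9 and 925.0 in wild type, and its groups overlapped. Its highest value fell on wild-type replicate 3, the array with the highest adipocyte sum, and KO replicate 2, with the second highest adipocyte sum, was the highest KO array. With the adipocyte score as a covariate the list's median was -0.09. In that fit 6 of 19 genes had an unadjusted p under 0.05, against 3 of 19 without the score. Over all 22180 genes there were 1395 with the score and 1293 without it. Beyond this fit the part of fat in these values was not tested. Without wild-type replicate 3 the list's median was -0.05 with 2 genes at an unadjusted p under 0.05 (1595 of 22180 over all genes). Without wild-type replicate 1 it was -0.30 with 5 (1370 of 22180). Without KO replicate 3 it was -0.11 with 0 (626 of 22180), and without wild-type replicate 2 it was -0.18 with 1 (1308 of 22180).

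**Figure D2:**
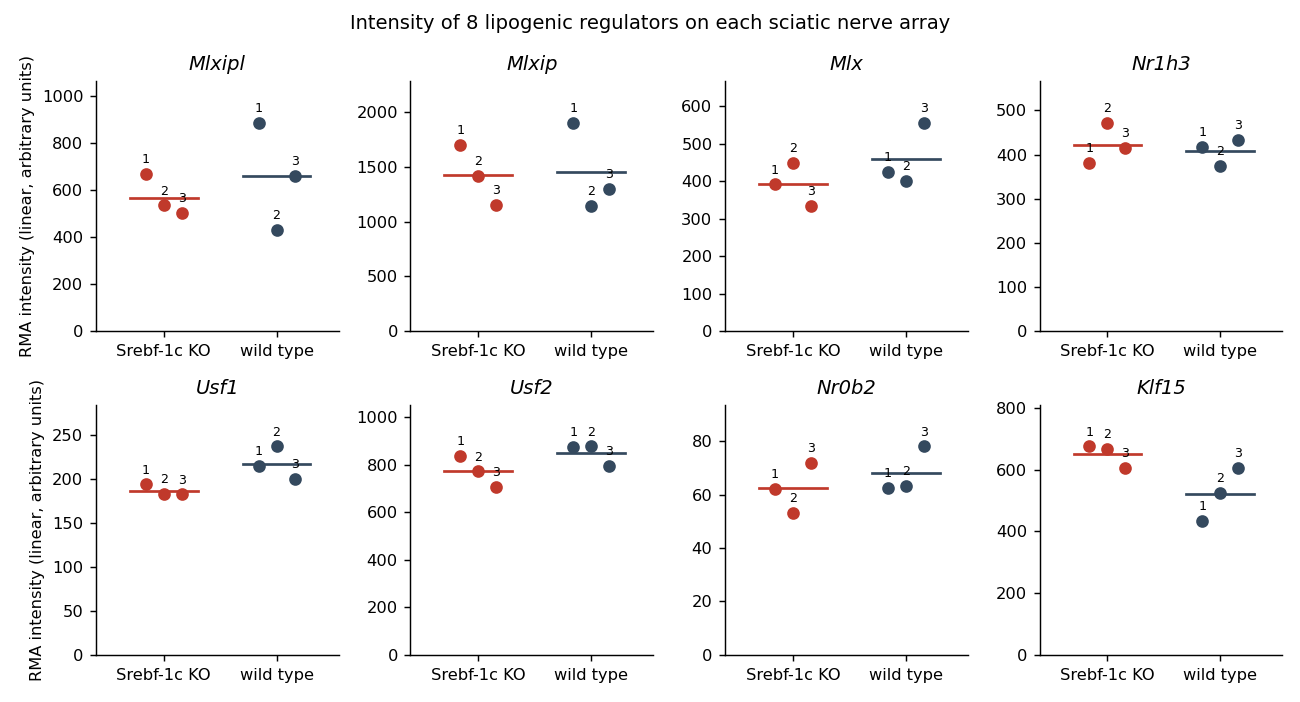
Intensity (y axis, linear scale from 0, arbitrary units) of the 8 measured regulators on each array, Srebf-1c KO left and wild type right; numbers beside points are replicates and lines are group means of the intensities. Only Klf15 and Usf1 show groups that do not overlap, and for Klf15 the lowest KO array (606.61) lies just above the highest wild-type array (604.51).

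Of the liver X receptors, Nr1h3 (probe set 17388177, chromosome 2), which encodes LXR alpha, was measured. Its intensity was 380.95, 472.27 and 414.67 in KO, against 416.85, 375.25 and 433.29 in wild type. The groups interleaved fully, and the log2 fold change was 0.05 ± 0.13 (SE, limma adjusted p = 0.975). The 95% interval of the ratio, 0.833 to 1.28, was among the narrower ones. Nr1h3 was highest on KO replicate 2 and wild-type replicate 3, which also had the highest macrophage scores, 0.507 and 0.489, against -0.492 and -0.069 on the other KO arrays and -0.269 and -0.166 on the other wild-type arrays. The 14 measured macrophage genes of 15 summed to 3318.6 to 7518.2 in KO and 4060.9 to 7638.5 in wild type, and their part in the Nr1h3 level was not tested. Macrophages and fat cells are both known to express this receptor.

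Targets of the liver X receptors, which cover cholesterol efflux and lipoprotein handling, had 17 measured genes of 20 listed, 10 with a lower and 7 with a higher mean in KO. The list includes Srebf1, the gene the KO targets, and Nr1h3 itself. For the other 15 measured, the median log2 fold change was -0.08, with 9 lower and 6 higher, against 56.9% and 43.1% of all genes. Of the 15, 1 had an unadjusted p under 0.05, a share near the 5.83% of all genes. It was Abcg5, a sterol transporter, with 67.0, 71.0 and 87.7 in KO, against 59.5, 57.2 and 59.4 in wild type. These dim values all lay below the median over all probe sets of their array. The groups did not overlap, yet the log2 fold change of 0.35 ± 0.14 (SE) had a limma adjusted p of 0.850. Cyp7a1, the rate-limiting enzyme of bile acid synthesis, stood at 0.34 ± 0.18 at intensities of only 16.8, 22.2 and 20.7 in KO, against 17.5, 12.5 and 17.5 in wild type. Abcg4, another sterol exporter, stood at -0.18 ± 0.15. The median of the whole list turned to 0.07 without wild-type replicate 3 and to 0.03 without KO replicate 3.

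The retinoid X receptors, with which the liver X receptors pair, and the coactivators and corepressors were listed as 18 genes, 16 of them measured. The mean was lower in KO for 14 and higher for 2 (11 and 5 with the arrays at 1 median), against 56.9% of all genes lower (50.2% with the arrays at 1 median). The median log2 fold change was -0.07, and 0 of 16 had an unadjusted p under 0.05, against 5.83% of all genes. Rxrb had 502.0, 389.4 and 430.1 in KO, against 544.4, 633.9 and 476.5 in wild type, at -0.32 ± 0.16 (SE). Rxrg stood at -0.25 ± 0.14, the coactivator gene Ppargc1b at -0.28 ± 0.19 and the corepressor component Tbl1xr1 at 0.25 ± 0.15.

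The upstream stimulatory factors had the smallest spread of the 8. Usf1 (probe set 17219339, chromosome 1) had an intensity of 194.02, 183.26 and 182.75 in KO, against 215.25, 237.27 and 200.56 in wild type. Every KO array lay below every wild-type array, a pattern that 8.21% of all genes showed in this direction. The log2 fold change was -0.22 ± 0.12 (SE, limma adjusted p = 0.870, unadjusted p = 0.104), and the ratio was 0.859 with a 95% interval of 0.709 to 1.04. The pooled SD within groups, 0.0927, was in the 10.2nd percentile of genes. The unmoderated test, which uses only this SD, gave an unadjusted p of 0.0445 (adjusted p = 0.779). Fits that each leave out 1 array gave log2 fold changes between -0.28 and -0.16.

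Usf2 (probe set 17489369, chromosome 7), its dimer partner, had an intensity of 837.8, 771.27 and 705.76 in KO, against 873.93, 876.53 and 793.2 in wild type. KO replicate 1 lay above wild-type replicate 3, so the groups overlapped, while the other KO arrays lay below all wild-type arrays. The log2 fold change was -0.14 ± 0.12 (SE, limma adjusted p = 0.906), with a 95% interval of the ratio from 0.745 to 1.11. Both genes kept a lower KO mean with each array left out and in the 12 other settings tried. The size for Usf2 depended on the arrays, from -0.08 without KO replicate 3 to -0.20 without KO replicate 1. Neither the adipocyte nor the muscle score moved them by much as a covariate: Usf1 stood at -0.23 and -0.21 and Usf2 at -0.15 and -0.14 in those fits.

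Nr0b2 (probe set 17419622, chromosome 4), the SHP gene, is known mainly from liver, where bile acids induce it. Its intensity was 62.08, 53.18 and 72.01 in KO, against 62.56, 63.28 and 78.06 in wild type, in the 25.9th percentile of mean intensity among genes, so its level lay near the dim end of this array. The groups overlapped, and the log2 fold change was -0.13 ± 0.16 (SE, limma adjusted p = 0.942). The 95% interval of the ratio ran from 0.706 to 1.19. For Nr0b2 the log2 fold change was -0.02 without KO replicate 2 and -0.23 without KO replicate 3, the ends of the fits that leave out an array. The hepatocyte list, with 13 genes measured of 14, was dim (median at the 35.2nd percentile of mean intensity). It summed to 1656.3 to 11848.5 in KO and 3127.9 to 11091.4 in wild type, with KO replicate 2 and wild-type replicate 3 highest. Cyp2e1 (6011.34 and 5872.59) and Hp (3489.68 and 3757.01) made up most of the sum on those arrays, which also had the highest adipocyte sums. Alb was also highest there (919.8 and 659.16), while Serpina1a stayed between 41.22 and 48.27. The part of liver cells or fat in these sums was not tested.

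Receptors that are known to act upstream of SHP or to be bound by it had 16 measured genes of 17 listed. The mean in KO was higher for 9 and lower for 7 (43.1% and 56.9% of all genes). The median log2 fold change was 0.05, and 0 of 16 had an unadjusted p under 0.05, against 5.83% of all genes. Nr5a2, which encodes LRH-1, had 130.8, 118.9 and 106.9 in KO, against 151.2, 137.6 and 137.6 in wild type, without overlap, at -0.26 ± 0.13 (SE). The xenobiotic receptor genes Nr1i3 and Nr1i2 stood at 0.26 ± 0.14 and 0.24 ± 0.13, and Hnf4a, the hepatocyte nuclear factor, at 0.22 ± 0.14. The groups also did not overlap for Nr1i3, which was higher in KO. Of the 16 genes, 1 lay apart lower in KO and 1 higher, against 8.21% and 4.08% of all genes. Nr1i3 and Nr1i2 were dim, below the median over all probe sets on all 6 arrays. Without wild-type replicate 2 the median of this list was -0.04.

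Klf15 (probe set 17460826, chromosome 6) stood furthest from 0 among the 8 and was 1 of the 2 with a higher KO mean. Its intensity was 674.9, 666.87 and 606.61 in KO, against 434.79, 525.15 and 604.51 in wild type. The groups did not overlap, a pattern that 4.08% of all genes showed in this direction, but KO replicate 3 and wild-type replicate 3 nearly met. The mean log2 intensity was 9.34 ± 0.08 in KO and 9.01 ± 0.24 in wild type (SD, n = 3 each), so wild-type arrays carried most of the spread. The log2 fold change was 0.33 ± 0.15 (SE), or 1.26-fold with a 95% interval of 0.983 to 1.60, and it did not pass the test (limma adjusted p = 0.863, unadjusted p = 0.0643).

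The Klf15 value stayed positive throughout but moved with the arrays used. It was 0.20 without wild-type replicate 1 and 0.44 without wild-type replicate 3, the lowest and highest of the 6 fits that leave out an array. Fat and muscle are both known to express Klf15, and with the adipocyte or the muscle score as a covariate it stood at 0.36 in each fit (unadjusted p = 0.0370 and 0.0496, adjusted p = 0.779 and 0.713). Across the 18 other settings the adjusted p ran from 0.669 to 1.00.

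Genes known to respond to KLF15, mostly enzymes of amino acid breakdown, had 20 of 20 measured, 10 with a higher and 10 with a lower mean in KO, and a median log2 fold change of -0.02. That sign turned after repeated quantile normalization (0.06), with the arrays at 1 median (0.02), with either score as a covariate (0.02 for adipocytes and 0.01 for muscle), and without KO replicate 3 (0.03), wild-type replicate 1 (0.04) or wild-type replicate 3 (0.08), while without wild-type replicate 2 the median was -0.08 with 14 of 20 lower. At an unadjusted p under 0.05 there were 2 higher and 0 lower, against 2.34% and 3.49% of all genes. Per1, a clock gene that glucocorticoids also induce, had 2521.1, 2393.9 and 2269.7 in KO, against 1464.3, 1753.1 and 1816.7 in wild type, at 0.52 ± 0.13 (SE). Gpt2, the mitochondrial alanine aminotransferase, had 1934.4, 2067.1 and 1760.3 in KO, against 1561.3, 1491.7 and 1603.2 in wild type, at 0.30 ± 0.12. In both genes the groups did not overlap, and both had a limma adjusted p of 0.850. Bcat2, the branched-chain aminotransferase gene, stood the other way at -0.27 ± 0.16 and Oat, the ornithine aminotransferase gene, at -0.24 ± 0.16.

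Among the other Kruppel-like factors, 16 of 16 were measured and 0 had an unadjusted p under 0.05, against 5.83% of all genes. The mean was lower in KO for 11, against 56.9% of all genes, and higher for 5, with a median log2 fold change of -0.04 (8 and 8 after repeated quantile normalization). Klf10 had 478.4, 489.8 and 390.9 in KO, against 583.1, 490.4 and 642.6 in wild type, at -0.33 ± 0.15 (SE), and its groups were barely apart. Klf9, which like Klf15 is induced by glucocorticoids, had 2430.1, 3032.8 and 2103.5 in KO, against 1558.1, 1911.8 and 2336.7 in wild type, at 0.39 ± 0.20, and Klf14 stood at 0.36 ± 0.18.

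Klf15 is itself known to be induced by glucocorticoids, and a list of other genes with that response had a higher mean in KO for 12 of 15 measured genes, against 43.1% of all genes, with a median log2 fold change of 0.31. The list was chosen with earlier results of these data known, so its shares describe it and are not an independent test. At an unadjusted p under 0.05 there were 5 higher, against 2.34% of all genes, and 0 lower, and 0 passed adjusted over all genes. Beside Per1, these included the kinase gene Sgk1, with 1667.9, 1612.3 and 1551.8 in KO, against 958.1, 1022.1 and 1357.8 in wild type (0.55 ± 0.16, SE). The metallothionein gene Mt2 had 5321.4, 5723.7 and 5573.9 in KO, against 3790.0, 3972.3 and 4722.8 in wild type (0.42 ± 0.13), and Mt1 stood at 0.38 ± 0.15. In Per1, Sgk1, Mt2 and Mt1 the groups did not overlap, and wild-type replicate 3 was the wild-type array nearest to KO, as it was for Klf15. The list score was 0.111, 0.325 and -0.026 in KO and -0.313, -0.255 and 0.159 in wild type, so the groups overlapped at wild-type replicate 3. The list's median ran from 0.19 to 0.48 with each array left out. The sources used here give no hour of dissection or state of handling, and neither was tested.

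**Figure D3:**
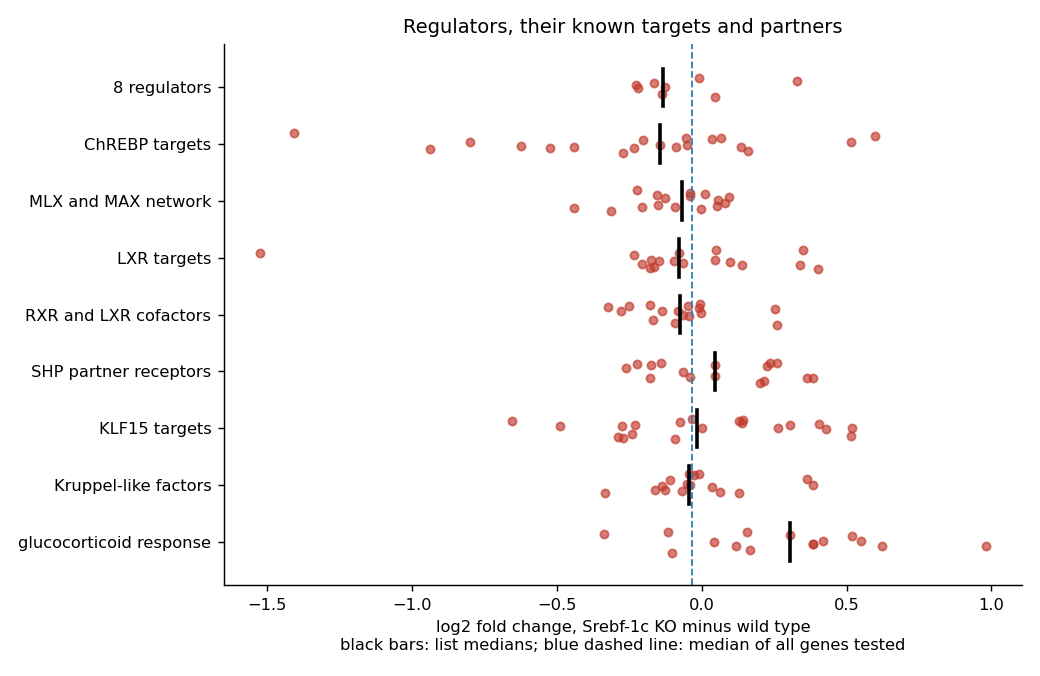
Log2 fold change, Srebf-1c KO minus wild type, of each measured gene (points, x axis) in the 8 regulators and in the lists of their targets and partners (rows); vertical spread within a row has no meaning. List medians (black bars) lie between -0.14 and 0.31, that of the glucocorticoid list being the one farthest above the median of all genes (-0.03).

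How the 8 genes varied over the 6 arrays differed from gene to gene. Arrays with high adipocyte scores (1.113 on KO replicate 2 and 1.29 on wild-type replicate 3) had the 2 highest values of Nr1h3 and of Mlx but not of Mlxipl, while Usf1 and Usf2 were both highest on wild-type replicate 2, which had the lowest muscle score. As a description of likeness over 6 arrays, the 2 genes closest to each regulator were sought among 10451 other genes of the brighter 50%. For Klf15 they were Creb1 (Pearson r = 0.981) and Rfk (r = 0.980), for Mlxipl Slc41a3 (r = 0.999) and Pdlim3 (r = 0.994) and for Usf1 Tead2 (r = 0.996) and Abtb1 (r = 0.994). With 6 arrays such values are common: 21 genes exceeded r = 0.95 with Klf15, 82 with Mlxipl and 88 with Usf1. All genes of an array share its tissue makeup, so these values describe likeness over the arrays and do not show relations between genes.

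**Figure D4:**
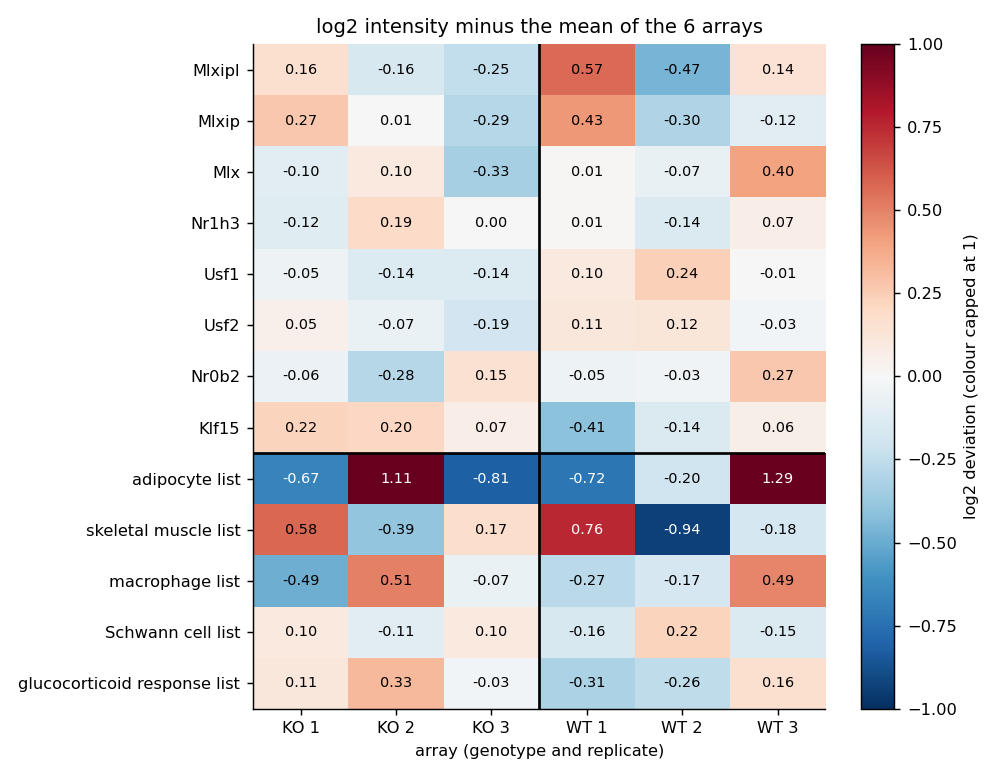
Deviation of the log2 intensity from the 6-array mean (colour and printed values) for the 8 regulators, with the mean of the same quantity over 5 gene lists below the line; columns are arrays, Srebf-1c KO left and wild type right. Klf15 is above 0 on all 3 KO arrays and on wild-type replicate 3, and the adipocyte list is high on KO replicate 2 and wild-type replicate 3.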

How the data were processed

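Each of the 6 samples was hybridised to 1 Affymetrix whole-transcript mouse array. The deposited values are probe set intensities that the authors computed with the Robust Multichip Average in TAC and Partek, per the series' design text, and a linear scale was read from the values (3.67 to 23737.99). The submitters' processing notes name the build mm8, and no source used here gives a software version. Groups follow the titles and genotype field, although source_name reads wild type for the KO samples too. No pair of arrays shared more than 0.117% of values.

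Log2 was taken with no pseudocount and no filter on dim genes. Of 41077 probe sets, 23521 carried 1 symbol, 1814 several and 15742 none in the platform annotation, and for 1082 genes with several the brightest on average was kept. KO minus wild type was fitted over 22180 genes with lmFit and eBayes of limma 3.58.1 (R 4.3.3), two-sided, with Benjamini-Hochberg adjustment, and checked on simulated data. Tables and plots used Python 3.11.15, pandas 2.3.3, numpy 2.4.6 and matplotlib 3.10.9. The members and lists were chosen with earlier results of these data known. Of each list, up to 4 genes with the smallest p were named. The 3 arrays per group limit the precision. Promoters were the RefSeq windows of GRCm38.p6. Alternatives are given in the closing section.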

Additional observations from a re-analysis of the deposited data

How the results depend on the processing

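The count of regulators that met the study's criterion was 0 in every setting tried, and the limma count at an unadjusted p under 0.05 was 0 or 1 of 8. It was 1 for Klf15 after repeated quantile normalization, with the adipocyte or the muscle score as a covariate and without wild-type replicate 3. Over all genes, 0 passed an adjusted p of 0.05 with the replicate block, the unmoderated test of the design text, quantile normalization, arrays at 1 median, every probe set tested, or either score as a covariate, against 1028 to 3191 at an unadjusted p under 0.05 in these settings. With arrays left out in turn it was 0 to 1, with 626 to 1595 at an unadjusted p under 0.05. The 1 gene, found without KO replicate 2, was not Srebf1 (limma adjusted p = 0.255 in that fit). The study's criterion was met by 138 genes in the unmoderated test, 150 without the dimmest 25%, 89 without the dimmest 50%, 1483 of 41077 probe sets and 34 at 2-fold, and by 231 to 552 with arrays left out. With arrays left out, log2 fold changes ran from -0.44 to 0.079 for Mlxipl, from -0.16 to 0.21 for Mlxip and from -0.037 to 0.12 for Nr1h3. The sign turned for Mlxipl without wild-type replicate 1 (0.079), for Mlxip with arrays at 1 median (0.023), without KO replicate 3 (0.13) and without wild-type replicate 1 (0.21), and for Nr1h3 without KO replicate 2 (-0.037) and without wild-type replicate 2 (-0.014). The cause was not tested. Srebf1 stayed between -1.56 and -1.46, and its call at an adjusted p of 0.05 was lost in 13 of 18 settings. Same-numbered arrays of the groups had deviations that correlated at 0.117, 0.0117 and -0.233 across genes, so the numbers were not taken as pairs. With the replicate block 0 genes passed and 288 met the criterion. Nr0b2 lay in the dimmer 50% of genes and had no value without them.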
